A study of Mus with 9 samples.

Results

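The circadian clock genes described here are Per1, Per2, Per3, Cry1, Cry2, Arntl, Clock, Dbp, Nr1d1 and Nr1d2, taken from the hippocampus arrays by gene symbol. All 10 symbols were found, each with 1 probe set (the short probes for 1 transcript cluster), among 22206 probe sets in all. Hippocampal RNA came from 3 groups of male mice. The methods give their age as 16 weeks, but not the age at tissue collection, which followed acclimatization, treatment and testing. SAMR1 is a strain that ages normally, and SAMP8 is a strain with accelerated senescence and early memory loss. They are separate inbred lines, so a difference between them cannot be told apart into senescence and other strain background. SAMR1 and SAMP8 received vehicle, named saline in the sample records and water in the methods. The TG-treated SAMP8 group received trigonelline (TG), a plant alkaloid, as a daily oral dose of 5 mg/kg over 30 days, continued through 8 more days of water maze testing. The mice were housed singly with 12 h of light in each day, and 3 hippocampal samples per group were hybridized to Clariom S Mouse arrays, 9 arrays in all. The hour at which the hippocampi were taken is not given in the sources used here, nor is it said whether it was the same for all groups.

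The molecular clock is a transcription loop found in most cells. CLOCK and BMAL1, the product of Arntl, form the activating limb: they bind E-boxes in DNA as a pair and switch on the Per and Cry genes. PER and CRY proteins then return to the nucleus and repress that pair. A second loop runs through REV-ERBα and REV-ERBβ, the products of Nr1d1 and Nr1d2, which are switched on by the same pair and repress Arntl. Dbp, also driven through E-boxes, encodes a transcription factor that carries the rhythm to genes with D-boxes. The levels of most of these transcripts therefore depend on the hour, in the hippocampus as in other tissues outside the suprachiasmatic nucleus, the master clock of the brain.

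The tables that the authors deposited hold 1 average for each group and probe set, on the log2 scale of the array signal, and no values for the single arrays were analysed here. No spread between mice could be given and no test across arrays was run, so every comparison is a difference of 2 averages, described by its size. An average is rounded to 2 decimals, which leaves a difference uncertain by 0.01 on the log2 scale. The same SAMP8 average enters both the strain comparison and the TG comparison, so a high or low SAMP8 average alone gives a gene opposite signs in the 2 of them. Likewise, the same SAMR1 average enters both comparisons against SAMR1. A high or low SAMR1 average alone therefore gives a gene the same sign in both. In a bulk tissue such as this, fewer cells of a type and less RNA per cell cannot be told apart.

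The sizes of the clock gene differences were near those of the array as a whole. In the strain comparison (SAMP8 minus SAMR1), 0 of the 10 genes passed a 1.5-fold difference, a limit that 11.1% of all probe sets passed. In the comparison with TG (TG-treated SAMP8 minus SAMP8), the count was again 0 of 10, against 8.21% of all probe sets. Between TG-treated SAMP8 and SAMR1 it was 0 of 10 against 10.5%. At a limit of 1.1-fold, the fold limit of the methods, 7 of the 10 genes passed in the strain comparison and 6 with TG, where 65.5% and 63.4% of all probe sets did. Between TG-treated SAMP8 and SAMR1 it was 6 against 64.9%. At 1.2-fold the counts were 3, 3 and 2 in these 3 comparisons, against 40.8%, 38.2% and 40.5% of all probe sets. At 2-fold they were 0, against 2.22%, 0.761% and 1.81%. The median size of the difference, whatever its sign, was 0.175 for the clock genes and 0.21 for all probe sets between the strains, and 0.205 and 0.20 with TG. The counts are therefore no result about the clock genes in particular.

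**Figure D1:**
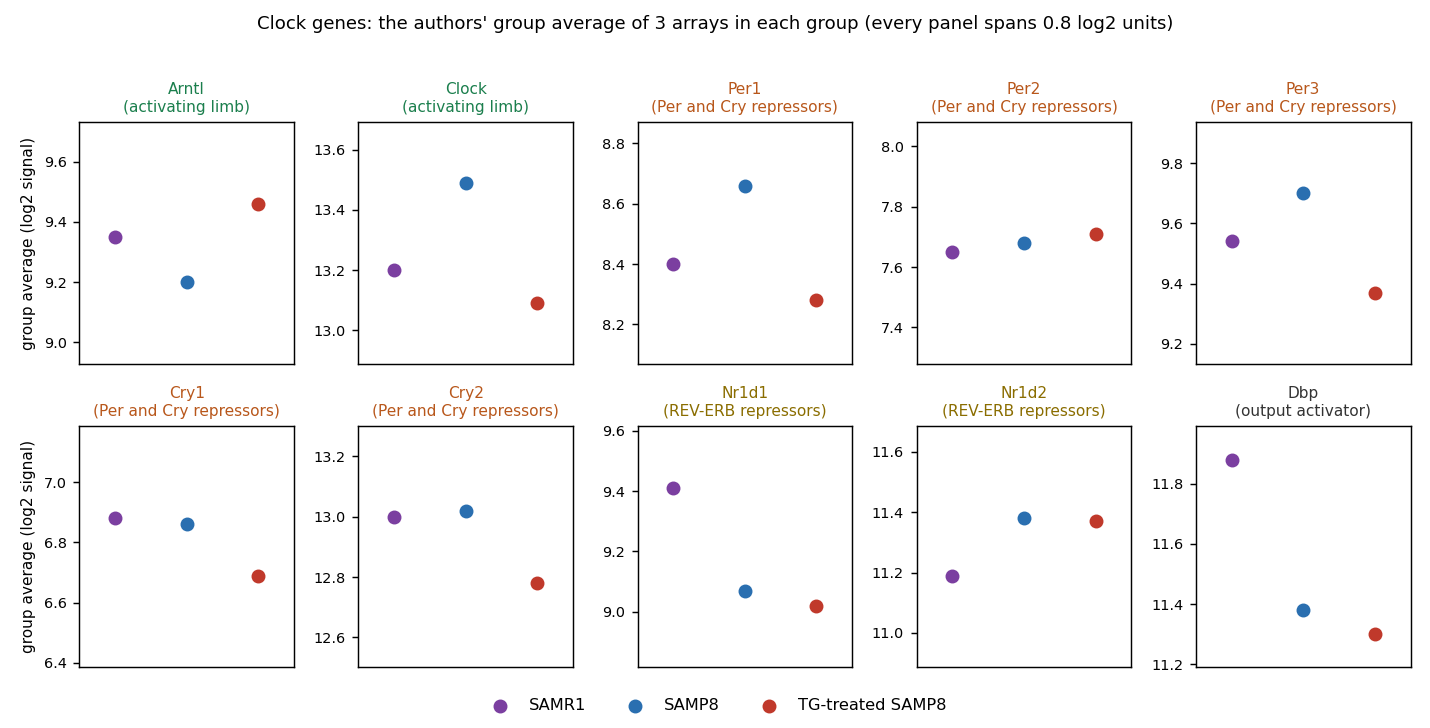
Group averages of the 10 clock genes, 1 panel per gene, with the log2 array signal on the vertical axis and 1 point for each group. Every panel spans 0.8 log2 units and there are no error bars because only averages were used. Dbp and Nr1d1 are highest in SAMR1, Clock, Per1 and Per3 are highest in SAMP8, and the 3 points of Per2 lie within 0.06 of each other.

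Of the activating limb, Arntl averaged 9.35 (SAMR1), 9.20 (SAMP8) and 9.46 (TG-treated SAMP8). It was thus lowest in SAMP8 and highest with TG, with log2 differences of -0.15 between the strains and 0.26 with TG. Clock, its partner, showed the reverse order, with averages of 13.20, 13.49 and 13.09 in the same sequence of groups. Its log2 difference was 0.29 between the strains (1.22-fold) and -0.40 with TG, the widest difference of the 10 genes in that comparison (1.32-fold lower). Both genes of the activating limb therefore went in opposite directions in each comparison. Between TG-treated SAMP8 and SAMR1, whose arrays are all different, they stood 0.11 above and 0.11 below.

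Among the Per genes, which encode the PERIOD repressors, Per1 averaged 8.40 (SAMR1), 8.66 (SAMP8) and 8.28 (TG-treated SAMP8). Per3 had the same order of groups, at 9.54, 9.70 and 9.37. Both were higher in SAMP8 than in the other groups, by 0.26 and 0.16 over SAMR1, and lower with TG by 0.38 and 0.33 on the log2 scale. Per2 was nearly level, with 7.65, 7.68 and 7.71 in the same order. Its range of 0.06 over the 3 groups was narrower than that of all but 3.1% of the probe sets on the array. Against the SAMR1 average, TG-treated SAMP8 was lower for Per1 and Per3 by 0.12 and 0.17 on the log2 scale.

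The Cry genes encode the cryptochromes, the partners of PERIOD in the repressing complex. Cry1 averaged 6.88 (SAMR1), 6.86 (SAMP8) and 6.69 (TG-treated SAMP8). For Cry2 the averages were 13.00, 13.02 and 12.78. Neither differed between the strains by more than 0.02, which is close to the rounding of the averages. With TG both were lower, Cry1 by 0.17 and Cry2 by 0.24 on the log2 scale (1.13-fold and 1.18-fold). In the TG comparison, 4 of the 5 Per and Cry genes were lower, where 48.3% of all probe sets were lower. Per2 was higher by 0.03, a difference that became 0 with the group medians subtracted.

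Nr1d1 and Nr1d2 encode nuclear receptors that bind heme and silence Arntl. Nr1d1 averaged 9.41 (SAMR1), 9.07 (SAMP8) and 9.02 (TG-treated SAMP8). It was highest in SAMR1, with a log2 difference of -0.34 between the strains (1.27-fold lower in SAMP8) and of -0.05 with TG. Nr1d2 went the other way between the strains, with 11.19, 11.38 and 11.37, and its log2 difference with TG was -0.01. The pair was thus separated by 0.53 in the strain comparison and by 0.04 with TG.

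Dbp had the widest range over the groups, 0.58 on the log2 scale, which is wider than that of 78.6% of all probe sets. It averaged 11.88 (SAMR1), 11.38 (SAMP8) and 11.30 (TG-treated SAMP8). The log2 difference was -0.50 between the strains (1.41-fold lower in SAMP8) and -0.08 with TG, so both SAMP8 groups lay below SAMR1. Against SAMR1 the TG-treated group was lower by 0.58, just short of the 1.5-fold limit of 0.585, and the rounding of the averages does not settle on which side of that limit it lies. Dbp and Nr1d1 were the 2 clock genes with the most negative strain difference. Clock had the most positive one.

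**Figure D2:**
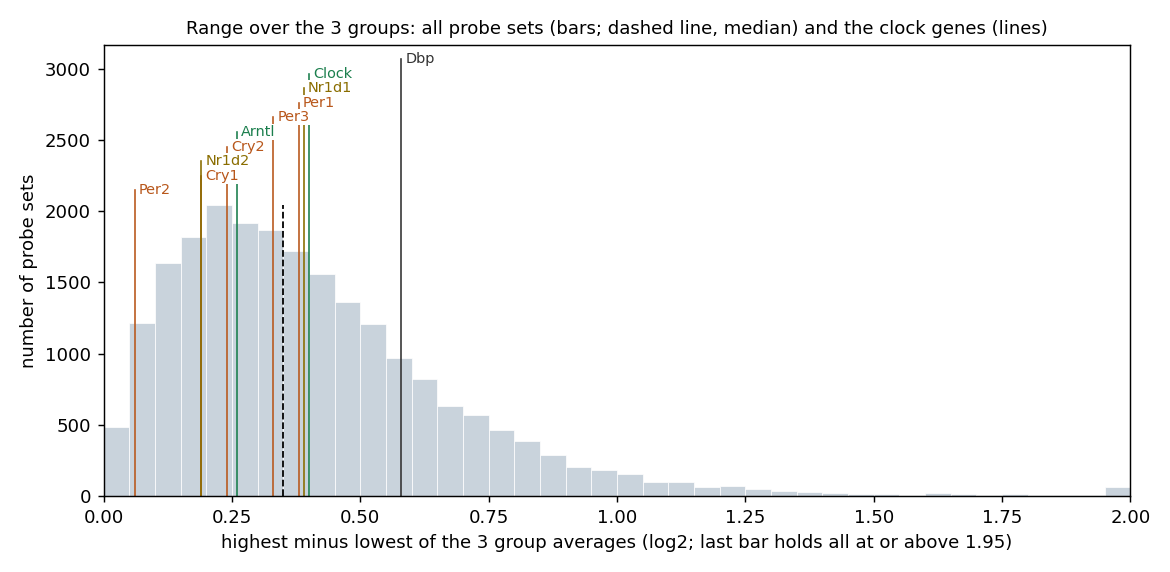
Number of probe sets by the range of the 3 group averages (highest minus lowest, log2), in bars 0.05 wide, with a line for each clock gene and a dashed line at the median of all probe sets, 0.35. The clock genes run from 0.06 (Per2) to 0.58 (Dbp), and 6 of the 10 lie below the median.

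The range over the 3 groups had a median of 0.30 for the clock genes and of 0.35 for all probe sets. Nr1d2 and Cry1 shared a range of 0.19, Cry2 had 0.24, Arntl 0.26, Per3 0.33, Per1 0.38, Nr1d1 0.39 and Clock 0.40. SAMP8 held the highest of the 3 averages for 5 genes (Clock, Per1, Per3, Cry2 and Nr1d2), SAMR1 for 3 and TG-treated SAMP8 for 2. Of all probe sets, 32.9% were highest in SAMP8. Relative to SAMR1, TG-treated SAMP8 was lower for 7 of the 10 genes, where 50.4% of all probe sets were lower and 48.1% higher.

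The order of the groups can be read against probe sets of like brightness, because on these arrays brighter probe sets stood slightly higher in SAMP8. For each clock gene the 500 probe sets nearest in level were taken, and their median strain difference was between 0.035 and 0.14. Dbp lay at the percentile 1.4 of its neighbours in the strain comparison and Nr1d1 at 7.8. Of the genes higher in SAMP8, Clock lay at 78.0, Per1 at 67.6, Nr1d2 at 57.2 and Per3 at 54.4. Per2 (41.6) and Cry2 (35.2) lay below the middle of their neighbours. Dbp was the 1 clock gene outside the 5th to 95th percentile there, and also between TG-treated SAMP8 and SAMR1, at the percentile 4.4. By construction, about 5% of the neighbours lie below that span and about 5% above it. A count of 1 in 10 genes is near that share, and both comparisons use the same SAMR1 average. With TG, 0 of the 10 genes lay outside that span. The lowest percentiles with TG were those of Clock (11.6), Per1 (15.2) and Per3 (19.8), and the highest was that of Arntl (78.6).

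**Figure D3:**
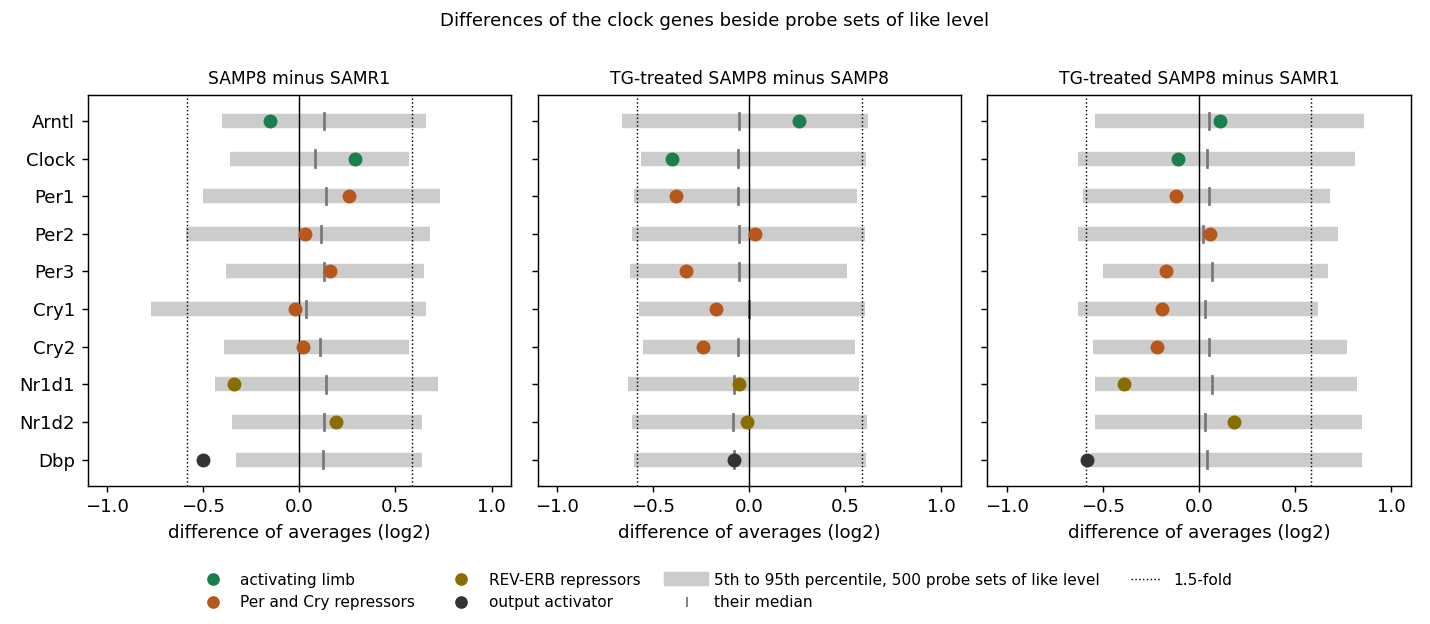
Log2 differences of the averages for the 10 clock genes (points, coloured by limb) in the 3 comparisons. The grey bar of each gene spans the 5th to 95th percentile of the 500 probe sets nearest in level, the tick marks their median, and dotted lines mark 1.5-fold. Dbp lies left of its bar in the strain comparison, and all points lie inside their bars in the comparison with TG.

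The activating and the repressing limb were compared by their medians. The repressing limb was taken as the Per, Cry and Nr1d genes (7 genes), with Dbp apart as an output gene. Between the strains the median log2 difference was 0.07 for the activating limb and 0.03 for the repressing limb, so the limbs were 0.04 apart. With TG the medians were -0.07 and -0.17, which is 0.10 apart, and against SAMR1 the TG-treated group had 0.00 and -0.17, which is 0.17 apart. Arntl and Clock were 0.44 apart between the strains and 0.66 apart with TG. The 7 repressing genes spanned 0.60 between the strains, from Nr1d1 to Per1, and 0.41 with TG, from Per1 to Per2. With 2 genes in the activating limb, whose differences had opposite signs, these medians do not settle whether the limbs were separated.

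In the TG comparison, 8 of the 10 clock genes had a lower average with TG and 2 a higher one (Arntl and Per2), where 48.3% of all probe sets were lower and 50.0% higher. Centred on the probe sets of like level, 5 were lower (Clock, Per1, Per3, Cry1 and Cry2), 4 were higher and Dbp was at 0. The median over the 10 genes was -0.125, against 0.01 for all probe sets and between -0.085 and 0.00 for the probe sets of like level. The differences of Dbp, Nr1d1 and Nr1d2 lay between -0.08 and -0.01, all smaller than the median size over the array. Between the strains, 6 genes were higher in SAMP8 and 4 lower (49.5% and 49.0% of all probe sets), and the median was 0.025. Centred on like level, 4 were higher and 6 lower. The signs of Cry1, Cry2 and Per2 in the strain comparison and of Nr1d1 and Nr1d2 in the TG comparison turned with the centring, and the TG differences of Per2 and Dbp became 0 under 1 of the centrings each.

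Some clock genes overlap a protein-coding gene that is also on the arrays in the mouse genome build GRCm38 (mm10), the build named in the file headers. Nr1d1, on chromosome 11 from 98767932 to 98775377, overlaps Thra, a thyroid hormone receptor gene, by 1075 bases. The log2 differences of Thra were -0.09 between the strains and -0.10 with TG, against -0.34 and -0.05 for Nr1d1. Dbp, on chromosome 7 from 45705100 to 45710203, overlaps Sphk2, a sphingosine kinase gene, by 741 bases. Sphk2 had -0.04 between the strains and 0.20 with TG, against -0.50 and -0.08 for Dbp. Per3, on chromosome 4 from 150997018 to 151044707, overlaps Uts2, a urotensin gene, by 4714 bases. Uts2 had 0.12 between the strains and 0.21 with TG, against 0.16 and -0.33 for Per3. Arntl, Clock, Per2 and Cry2 overlap long noncoding RNA genes or a pseudogene that had no probe set matched by symbol. The clock genes not yet placed lie at chromosome 1 from 91415977 to 91459351 (Per2), chromosome 2 from 92403646 to 92434085 (Cry2), chromosome 5 from 76209868 to 76305603 (Clock), chromosome 7 from 113178471 to 113314126 (Arntl), chromosome 10 from 85131700 to 85185054 (Cry1), chromosome 11 from 69095108 to 69109965 (Per1) and chromosome 14 from 18204056 to 18239106 (Nr1d2).

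Dbp was the clock gene with the widest range, and the probe sets whose pattern over the 3 group averages was nearest to it were sought. Ankrd22, Fcrla and Ncaph had both log2 differences within 0.01 of those of Dbp. In all, 258 probe sets lay within 0.1 of Dbp in both differences. These 3 genes had averages between 3.08 and 4.36, in the lower part of the array's signal, whereas those of Dbp lay above 11.

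Other genes of the clock pathway were taken as a list of 28 genes on the arrays. In the strain comparison 3 of the 28 passed 1.5-fold, 2 higher and 1 lower in SAMP8, beside the 11.1% of all probe sets. With TG, 0 of the 28 did when each gene was taken by its brightest probe set, beside 8.21% of all probe sets, although a dimmer probe set of Rorb passed. The medians of the list were 0.175 between the strains and -0.095 with TG, and 20 of the 28 genes were lower with TG, where 48.3% of all probe sets were. Centred on probe sets of like level, the medians were 0.098 and -0.085, and 18 of the 28 were lower with TG. Against SAMR1, the TG-treated group was higher for 16 of the 28 and lower for 12, with a median of 0.09, beside 48.1% and 50.4% of all probe sets. Tsc22d3, a glucocorticoid-induced gene that is also rhythmic in many tissues, averaged 9.10 (SAMR1), 10.15 (SAMP8) and 10.19 (TG-treated SAMP8). Its strain difference of 1.05 was the widest of the list. Usp2, a rhythmic deubiquitinase, had 7.79, 8.58 and 8.17 in that order of groups, a strain difference of 0.79. Arntl2, a close relative of Arntl, had 7.2, 6.58 and 6.33 and was lower in SAMP8 by 0.62 on the log2 scale. Between TG-treated SAMP8 and SAMR1, 4 of the 28 passed, Tsc22d3 (1.09) and Hlf (0.96) higher and Arntl2 (-0.87) and Tipin (-0.77) lower, beside 10.5% of all probe sets.

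Within the list, Npas2 can stand in for Clock as the partner of BMAL1. It had averages of 9.83, 10.31 and 10.03 in SAMR1, SAMP8 and TG-treated SAMP8, the same order of groups as Clock apart from a TG average above SAMR1. Hlf, a relative of Dbp with the same kind of DNA-binding domain, did not follow it: its averages were 10.21, 10.70 and 11.17, lowest in SAMR1 where Dbp was highest. Against SAMR1 the TG-treated group was higher for Hlf by 0.96. Of the ROR genes, the activators of Arntl that oppose the REV-ERBs, Rorb has 2 probe sets that disagree. The brighter had 9.19, 9.14 and 9.15, and the dimmer 7.88, 8.27 and 7.13, a difference of -1.14 with TG. The 3 probe sets of Rora were all higher in SAMP8, by 0.28, 0.53 and 0.63, and their differences with TG were 0.13, -0.14 and -0.10. The repressors and modulators were spread from -0.48 (Tipin) to 0.29 (Bhlhe40) between the strains and from -0.29 (Tipin) to 0.38 (Nfil3) with TG. Among the kinases and ubiquitin enzymes that act on clock proteins, 8 of 9 genes were lower with TG, where 48.3% of all probe sets were. Their median was -0.22, or -0.16 centred on probe sets of like level, and Usp2 had the widest difference, -0.41. Of the same 9, 7 were higher in SAMP8 than in SAMR1, with a median of 0.19, where 49.5% of all probe sets were. Centred on probe sets of like level, 6 were higher and 3 lower in SAMP8, with a median of 0.08. Against SAMR1, the TG-treated group was higher for 5 and lower for 4, with a median of 0.03, beside 48.1% and 50.4% of all probe sets. By the brightest probe set of each gene, Npas2 had the widest difference of the activators and ROR genes with TG, -0.28, which the dimmer Rorb probe set exceeded. Of the clock-controlled output genes, Nampt, the rate-limiting enzyme of NAD salvage, was the widest with TG, at 0.34, after a strain difference of -0.36.

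**Figure D4:**
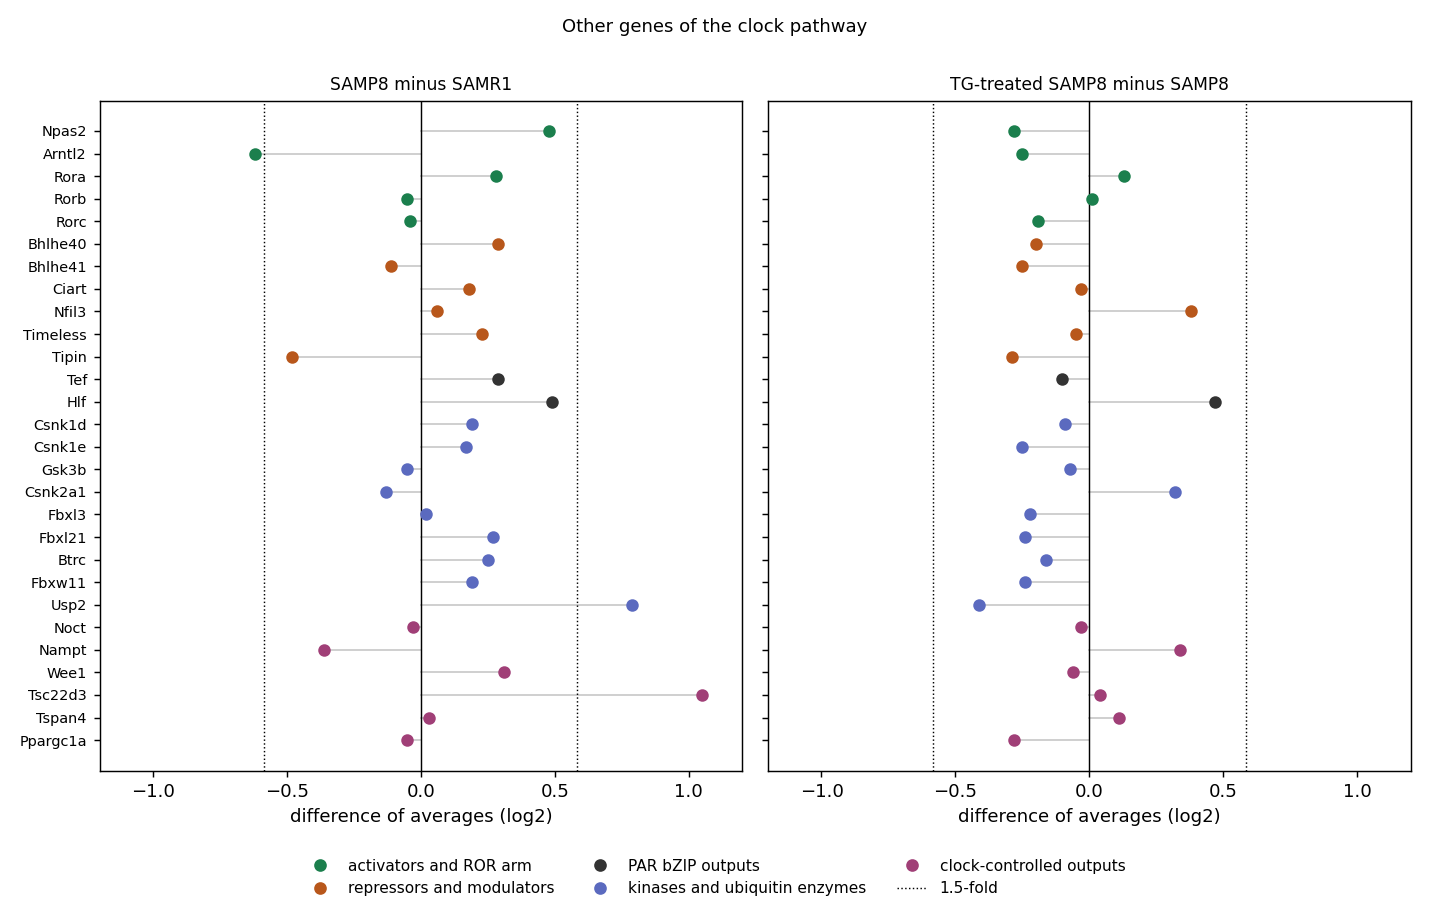
Log2 differences of the averages for the 28 other clock pathway genes (points, coloured by class) between the strains (left) and with TG (right), with dotted lines at 1.5-fold. Tsc22d3, Usp2 and Arntl2 lie past the dotted lines on the left, and no point does on the right.

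Per1 and Tsc22d3 can also be switched on by neuronal activity or by glucocorticoids, so lists of genes for both were set beside them. Of 9 immediate early genes, 7 were higher in SAMP8 than in SAMR1 and 9 were higher with TG than without, with medians of 0.30 and 0.37, where 49.5% and 50.0% of all probe sets were higher. Egr1 (0.83), Arc (0.64), Nr4a1 (1.02) and Dusp1 (0.80) passed 1.5-fold between the strains and Npas4 (0.79) with TG, beside 11.1% and 8.21% of all probe sets past that limit in either direction. Per1, higher in SAMP8 by 0.26 and lower with TG by 0.38 on the log2 scale, went with this list between the strains and against it with TG. Of 7 glucocorticoid-induced genes, 7 were higher in SAMP8, with a median of 0.20, and 4 were higher with TG, with a median of 0.03, beside the same shares of 49.5% and 50.0%. Cdkn1a (0.77) passed 1.5-fold between the strains and Mt1 (0.64) with TG. Their part in the values of Per1 was not tested.

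Markers of other cells and regions were set beside the clock genes as well. Of 7 hippocampal neuron markers on the arrays, the averages ran from 6.75 to 14.88. Prox1, a dentate granule cell marker, was the 1 marker past 1.5-fold, both between the strains (0.59) and with TG (-0.85). Of the 7, 5 were higher and 2 lower in each of these comparisons, with medians of 0.06 and 0.05. Of all probe sets, 49.5% and 50.0% were higher. Of 7 suprachiasmatic genes, 6 had averages below 4.7 in every group. Vip, which hippocampal interneurons also express, stood at 7.23, 8.69 and 9.43 in SAMR1, SAMP8 and TG-treated SAMP8. Outside those 7, Rgs16, a rhythmic gene of that nucleus that was also listed as a thalamic marker, was higher in SAMP8 by 0.70. The summed linear signal of 9 choroid plexus markers was 11880, 14360 and 12590 in that order of groups, that of 9 meningeal markers 2135, 1622 and 1126, and that of 5 smooth muscle markers 245.2, 409.3 and 205.2. The brightest markers weigh most in such sums. In the choroid plexus that was Enpp2 (13.45, 13.70 and 13.45), whereas Ttr, at 8.45, 9.33 and 10.05, was highest with TG. Of these 9, 6 were higher and 3 lower in SAMP8, and 3 higher and 6 lower with TG. In the meninges the brightest was Dcn (10.66, 10.15 and 9.38). Of the 9 meningeal markers, 4 were higher and 4 lower in SAMP8, with a median of 0.00, and 4 higher and 5 lower with TG, with a median of -0.15. Of all probe sets, 49.5% were higher in SAMP8 and 50.0% with TG. For 8 thalamic markers the sums were 4156, 4657 and 3184, and for 6 striatal markers 324.5, 342.9 and 284.0. Prkcd, the brightest thalamic marker in SAMR1 and SAMP8, stood at 10.85, 11.03 and 9.53. Of the 8 thalamic markers, 6 were higher and 2 lower in SAMP8, with a median of 0.32. With TG, 4 were higher and 4 lower, with a median of 0.02. Of the 6 striatal markers, 3 were higher and 3 lower in SAMP8, and 1 higher and 5 lower with TG. Beside 11.1% and 8.21% of all probe sets, in the order choroid plexus, meninges, smooth muscle, thalamus and striatum, 2, 3, 2, 3 and 0 of these markers passed 1.5-fold between the strains and 2, 3, 3, 1 and 1 with TG. Acta2, a smooth muscle actin, stood at 5.52, 7.71 and 5.54, the widest of them. Tagln, the other smooth muscle marker past 1.5-fold between the strains, went the opposite way, at 4.74, 3.91 and 4.62. Of the 5 smooth muscle markers, 2 were higher and 3 lower both in SAMP8 and with TG. Their medians were -0.09 and -0.30, where 49.5% and 50.0% of all probe sets were higher. The part of these differences in the clock gene averages was not tested.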

How the data were processed

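RNA of 9 hippocampi was labelled and hybridized to Clariom S Mouse arrays. Per the methods, the authors used TAC software to normalize the scans (SST-RMA), and each deposited value is their average for a group of 3 arrays. The 2 tables deposited by the authors hold these averages on the log2 scale for 22206 probe sets, annotated on mm10 per the file headers. The SAMP8 averages were equal in both tables, for 22206 of 22206 probe sets. Columns with the authors' own fold changes and p-values were not used. A description field of the records names a macrophage line, whereas their tissue and source fields give mouse hippocampus, which was used. The design text speaks of duplicate samples, whereas the titles number 3 in each group.

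Groups followed the sample titles. Differences of the averages, the share of probe sets past 1.5-fold, percentiles among all probe sets and among the 500 nearest in level, and limb medians were computed in Python 3.11.15 (numpy 2.4.6, pandas 2.3.3, matplotlib 3.10.9), checked on simulated data. With 3 arrays in a group, precision is limited by their number. Genes with several probe sets were taken by the brightest. Positions and overlaps come from RefSeq on GRCm38, where all 10 genes were found. No promoter or protein sequence was used here. The clock genes, the other lists and the limits were chosen with earlier results of these data known. The other genes named are those past 1.5-fold, those with the widest difference of a class, and the 3 nearest to the clock gene with the widest range. Markers of other cells are given as counts and sums, with Acta2 as the widest and a few others named. Rora, Rorb, Bhlhe40, Thra, Sphk2, Uts2, Tagln, Enpp2, Ttr, Dcn and Prkcd were named after their values were seen. Alternatives were the fold limit, 3 kinds of centring or filtering (group medians, probe sets of like level, leaving out the dimmest 25%), and the make-up of the limbs. Centring on probe sets of like level and the mean over probe sets were chosen after seeing the data.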

Additional observations from a re-analysis of the deposited data

How the results depend on the processing

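No paired analysis was possible because the tables hold group averages without the replicate numbers, and leaving out single arrays could not be run for the same reason. Leaving out the dimmest 25% of probe sets kept all 10 clock genes, so their counts past 1.5-fold could not change. It kept 27 of the 28 other clock genes, whose counts stayed the same. The shares of all probe sets past 1.5-fold became 12.6% (strain), 9.64% (TG) and 12.3% (TG-treated SAMP8 against SAMR1), in place of 11.1%, 8.21% and 10.5%. Each clock gene has 1 probe set, so averaging over probe sets could not change its values. The count of clock genes past the limit, 0 in each comparison at 1.5-fold and at 2-fold, was 7, 6 and 6 at 1.1-fold and 3, 3 and 2 at 1.2-fold (strain, TG, and TG-treated SAMP8 against SAMR1). With each difference centred on the 500 probe sets of like level, 1 clock gene, Dbp, passed 1.5-fold in the strain comparison and 1, Dbp, between TG-treated SAMP8 and SAMR1. The share of all probe sets past 1.5-fold after this centring is not given here. Without centring it was 11.1% and 10.5%, so this count is no result about Dbp in particular. For the 28 other clock genes the counts of 3, 0 and 4 became 18, 17 and 18 at 1.1-fold, 12, 8 and 9 at 1.2-fold, and 1 for the strains and 1 for TG-treated SAMP8 against SAMR1 at 2-fold. Of all probe sets, 65.5%, 63.4% and 64.9% passed 1.1-fold, and 40.8%, 38.2% and 40.5% passed 1.2-fold. At 2-fold the shares were 2.22%, 0.761% and 1.81%.

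The median over the clock genes was 0.025, -0.125 and -0.145 in the 3 comparisons. Subtracting the group medians gave 0.075, -0.155 and -0.125, and centring on probe sets of like level gave -0.07, -0.085 and -0.198, so the sign of the strain median turned. Single signs that turned were those of Cry1 (0.03 with group medians subtracted), Per2 (-0.08) and Cry2 (-0.09) between the strains, and of Nr1d1 (0.03) and Nr1d2 (0.08) with TG, the last 4 after centring on like level. With TG, Per2 became 0 with group medians subtracted and Dbp became 0 on centring. With the ROR genes taken by their brightest probe sets, the distance of the limbs stayed positive in every setting run. The dimmer Rora and Rorb probe sets (1 of Rorb at -1.14 with TG) were not tried in the limbs. Whether the sign holds with them was not tested. For the strains the distance was 0.027 with means, 0.09 with Npas2 and the ROR genes among the activators, and 0.02 after centring on like level. With TG it was 0.17 with the Per and Cry genes alone as repressors, 0.055 with Dbp among them, 0.08 with Npas2 and the ROR genes added and 0.155 after centring. Between TG-treated SAMP8 and SAMR1 it was 0.121 with means and 0.205 with the added activators. Without a spread over arrays, none of these shifts can be set against replicate error.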
